A study of Homo sapiens with 8 samples.

Results

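The regions described here are the H3K79me3 regions that lay in a CpG shore and outside every annotated promoter. They were taken from the authors' table of H3K79me3 regions called different between shLAMP5-AS1 and shNC cells. A region was kept where the authors' CpG shore column held an entry and their promoter column held none. This gave 1886 of the 13666 H3K79me3 regions, or 13.8%, and of the 22412 regions in the tables of both marks. A further 684 H3K79me3 shore regions also had a promoter entry and were not members. All 861 H3K79me3 regions with an entry for the 2 kb upstream of a gene also had a promoter entry, so the rule removed upstream flanks together with promoters.

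The cells were MOLM-13, an established acute myeloid leukemia line with an MLL fusion gene. They carried shLAMP5-AS1, a hairpin that carries the name of the long noncoding RNA read antisense to LAMP5, or shNC, the control hairpin. ChIP-seq was done for H3K79me3 and H3K79me2, with 1 ChIP and 1 input library for each mark and hairpin, 8 libraries in all. With 1 library a group and 1 cell line there is no replicate check, so no p-value is given and the intervals below cover counting error only. The label fields do not all match the sample titles, which were followed here. The transfection field calls the controls control siRNA, the treatment field names knockdowns of KLF11 and YAP, and the growth field describes cells from a xenograft. The tables hold 1 signed score a region and give no read totals, so library depth is unknown. The score is the authors' own value for each region, without a stated unit, and no source used here says which hairpin a negative score stands for. Signs are kept as in the tables, and neither gain nor loss after the knockdown is read from them.

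Methylation of lysine 79 on histone H3 is written by DOT1L, which travels with the elongating polymerase, and it is found mainly in the first part of the bodies of transcribed genes. In leukemia with MLL fusions, the fusion proteins recruit DOT1L to genes such as HOXA9 and MEIS1. CpG islands are stretches rich in CG dinucleotides that cover the promoters of most widely used genes, and the shore is the flank of an island on either side.

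Promoter windows of genes that held such a region are shown for the CpG content of the gene starts; they are not the islands beside the regions, which can lie inside the gene or at its end. The windows below run from 250 bases before to 50 bases after the annotated start, are read 5' to 3' on the strand of the gene, and come from RefSeq on GRCh38.p14. HOXA9 (chr7:27165488-27165787, minus strand), RPS9 (chr19:54200608-54200907, plus strand) and PA2G4 (chr12:56104309-56104608, plus strand) had the largest score sizes among named genes with a single window. LAMP5-AS1 (chr20:9514949-9515248, minus strand), the targeted RNA, had the lowest CpG ratio of those genes. Capitals mark each CG dinucleotide, which reads the same on both strands.
HOXA9: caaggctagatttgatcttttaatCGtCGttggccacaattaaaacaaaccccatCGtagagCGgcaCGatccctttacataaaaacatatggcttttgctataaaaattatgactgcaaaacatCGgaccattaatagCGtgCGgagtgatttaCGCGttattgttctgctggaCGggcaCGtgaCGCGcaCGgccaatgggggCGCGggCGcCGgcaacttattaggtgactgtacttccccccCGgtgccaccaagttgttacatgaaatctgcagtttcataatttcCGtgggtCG
RPS9: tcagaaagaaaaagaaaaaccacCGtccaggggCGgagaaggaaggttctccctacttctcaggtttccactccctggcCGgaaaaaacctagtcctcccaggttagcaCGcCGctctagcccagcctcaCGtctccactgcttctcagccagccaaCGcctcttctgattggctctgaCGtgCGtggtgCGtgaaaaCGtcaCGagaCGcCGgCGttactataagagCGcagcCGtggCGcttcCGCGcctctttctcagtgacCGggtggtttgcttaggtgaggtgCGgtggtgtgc
PA2G4: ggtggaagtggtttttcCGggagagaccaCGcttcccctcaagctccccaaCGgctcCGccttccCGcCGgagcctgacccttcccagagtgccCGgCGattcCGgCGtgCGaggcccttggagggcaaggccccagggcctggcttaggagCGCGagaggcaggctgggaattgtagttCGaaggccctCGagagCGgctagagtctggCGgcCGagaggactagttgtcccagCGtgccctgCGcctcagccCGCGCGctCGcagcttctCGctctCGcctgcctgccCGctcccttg
LAMP5-AS1: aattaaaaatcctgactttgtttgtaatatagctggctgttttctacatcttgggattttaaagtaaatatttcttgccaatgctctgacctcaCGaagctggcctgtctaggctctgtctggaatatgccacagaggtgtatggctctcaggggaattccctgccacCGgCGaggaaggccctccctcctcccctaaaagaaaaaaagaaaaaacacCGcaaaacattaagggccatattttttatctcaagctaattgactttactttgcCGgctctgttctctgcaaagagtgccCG

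These windows held 22 CG dinucleotides in HOXA9, 22 in RPS9, 27 in PA2G4 and 6 in LAMP5-AS1. Set against the number that the base composition would give, the observed over expected CpG ratio was 1.27 in HOXA9, 0.874 in RPS9, 0.772 in PA2G4 and 0.417 in LAMP5-AS1. With a GC content of 48% in HOXA9 and 44% in LAMP5-AS1, these starts are not island-like by the limits used below, whereas those of RPS9 and PA2G4 are. A window could be assigned to 1064 of the 1316 genes with a shore region outside promoters (80.9%). Their median CpG ratio was 0.889 (95% interval 0.873 to 0.900), with quartiles of 0.767 and 0.986, and their median GC content was 66%. A ratio of at least 0.6 with at least 50% GC was met by 939 of them (88.3%, 95% Wilson interval 86.2 to 90.1). Over all 27305 genes in the promoter table it was met by 12595 (46.1%, 45.5 to 46.7). These sets were not matched for gene type. Protein-coding genes were 1258 of the 1316 genes with such a region, but only 15843 of the 27305 in the promoter table. How much of the gap goes with gene type was not tested. The rule asks for an island near the region, anywhere in the gene, and how many members flank the island of the gene start was not tested. The same check was void for genes with other H3K79me3 body regions, since only 79.2% of them had a window.

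**Figure D1:**
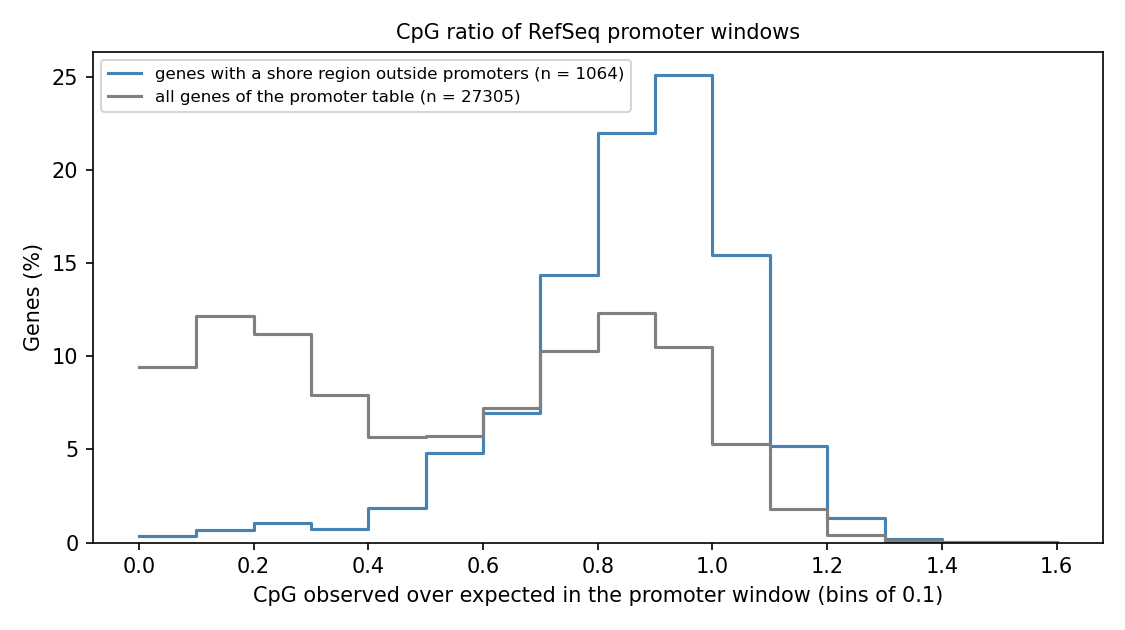
CpG observed over expected ratio (x axis, no unit) in RefSeq promoter windows, as percent of genes in bins of 0.1 (y axis), for 1064 genes with an H3K79me3 shore region outside promoters (blue) and all 27305 genes of the table (grey). The blue line has 1 peak with a median of 0.889, while the grey line is spread over low and high ratios with a median of 0.563. Gene type was not matched between the lines.

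Nearly all H3K79me3 shore regions outside promoters carried a negative score. Negative scores were given to 1875 and positive scores to 11 in the authors' deposited table, so 99.4% were negative (95% Wilson interval 99.0 to 99.7), beside a background of 97.5% over the whole H3K79me3 table. Of the other 11780 H3K79me3 regions, 11454 were negative (97.2%, 96.9 to 97.5). Shore regions at promoters were close to the members, with 676 of 684 negative (98.8%, 97.7 to 99.4). H3K79me3 regions in neither a shore nor a promoter were negative in 97.1% of 10658 cases (96.8 to 97.4). The intervals of the members and of the other regions did not overlap, but neighbouring regions are not independent and the negative sign was near universal in every class.

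For H3K79me2 the same kind of place looked different. Of 761 H3K79me2 shore regions outside promoters, 363 were negative and 398 positive in the authors' deposited table (47.7% negative, 44.2 to 51.3), beside a background of 55.3% over the H3K79me2 table. All other H3K79me2 regions were negative in 56.0% of 7985 cases (54.9 to 57.1). So the shores lay above the remainder of their table in negative share for H3K79me3 and below it for H3K79me2. This difference between the marks was not tested, because each rests on 1 pair of ChIP libraries.

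**Figure D2:**
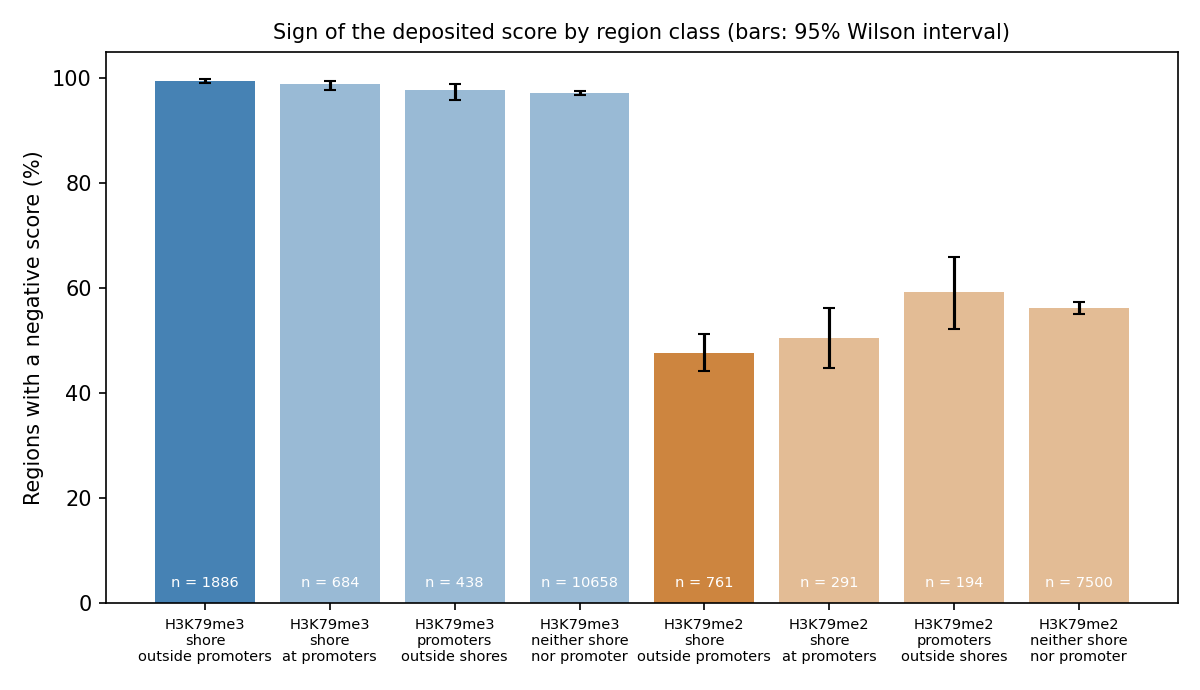
Percent of regions with a negative deposited score (y axis) by mark and region class (x axis), with 95% Wilson intervals over regions as error bars and the number of regions in each bar. The H3K79me3 shore regions outside promoters stand at 99.4% and their H3K79me2 counterparts at 47.7%.

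The sizes of the scores were much like those elsewhere. Over the members the score size ranged from 5.01 to 29.9 in the authors' deposited table, with quartiles of 8.41 and 13.3 and a median of 10.4 (95% interval 10.2 to 10.7). The median over the other H3K79me3 regions was 10.2, and their largest size was 99.5 in the authors' deposited table. A size of at least 15 was reached by 249 members (13.2%, 11.7 to 14.8), against 11.0% of the other regions (10.4 to 11.5). Scores took few values, with 146 distinct sizes over the members and 109 members at the most common size, 10.19, in the authors' deposited table. Ties between genes are therefore frequent and small differences in rank carry little weight.

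The regions were short and lay close to other regions of the mark. Their width ran from 63 to 553 bases with a median of 86, against a median of 85 for other H3K79me3 regions, and together they covered 193 kb. The nearest other H3K79me3 region was a median of 1082 bases away, against 1304 bases for the others. A neighbour within 1 kb was present for 48.1% of members and 44.6% of other regions, and a neighbour within 5 kb for 73.5% of members and 73.2% of other regions. Chromosome 19 had the highest share among autosomes, with 182 of its 672 H3K79me3 regions in shores outside promoters (27.1%). Chromosome 3 had the lowest, with 84 of 1024 (8.20%).

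Most of these shore regions lay in introns. An intron entry was present for 1676 of 1886 members (88.9%, 95% Wilson interval 87.4 to 90.2), against 86.3% of the other H3K79me3 regions (85.7 to 87.0). Exon entries were found in 137 members (7.26%, 6.18 to 8.52), against 4.26% of the others (3.91 to 4.64). The 2 kb downstream of a gene was named for 81 members (4.29%, 3.47 to 5.31), against 1.95% (1.72 to 2.22). A 3' UTR was named for 38 members (2.01%, 1.47 to 2.75), against 0.900% (0.745 to 1.09), and a 5' UTR for 20 members. An entry in the CpG island column was also present for 19 members (1.01%, 0.646 to 1.57), against 3.62% of the others (3.30 to 3.98). A gene body of any kind was named for 1783 members (94.5%, 93.4 to 95.5), against 89.4% of the other regions (88.8 to 89.9). The rule took flanks of islands and left all 1122 promoter regions among the others. How much of these contrasts follows from the rule was not tested. Of the 103 members without a gene body, 34 had a downstream entry, and 54 members were annotated to more than 1 gene.

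The shores lay almost entirely on the side of the island into which the gene is transcribed. The authors' shore entries mark the side of the island, and in 176 of 176 islands with regions on both sides the entry ending in plus lay at lower positions. Of 1733 members with a gene and a single side, 1406 (81.1%) had a gene of known strand in the RefSeq table. In these, 1328 (94.5%, 93.1 to 95.5) were on the downstream side, 701 in plus-strand genes and 627 in minus-strand genes, and 78 were on the upstream side. The rule largely fixes this direction, because promoter regions and the 2 kb upstream were removed and only regions in a gene body were placed. The count is thus a description of where the regions lie. H3K79me2 shore regions outside promoters were alike, with 513 of 552 placed regions on the downstream side (92.9%, 90.5 to 94.8).

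**Figure D3:**
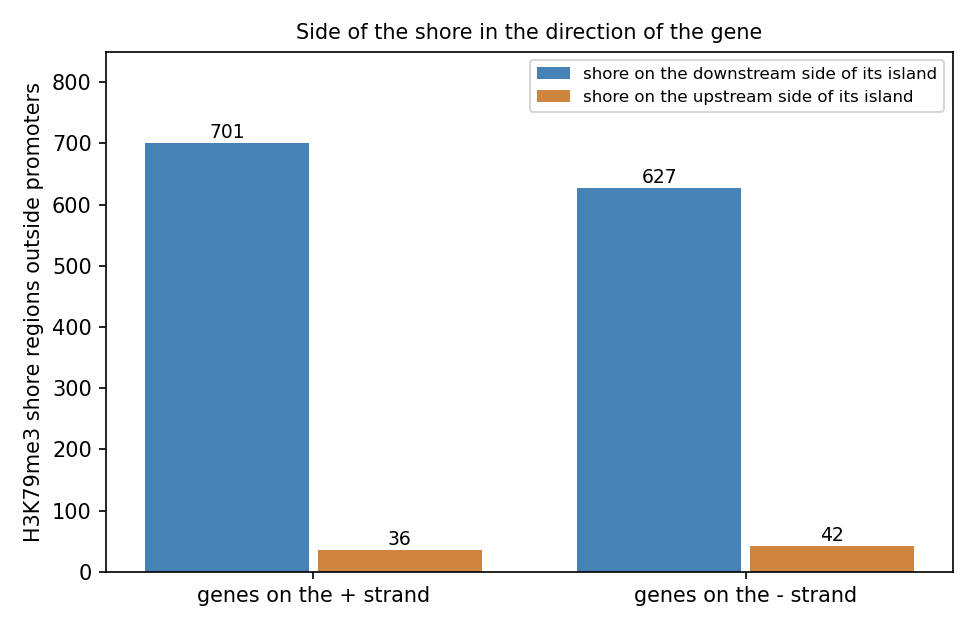
Number of H3K79me3 shore regions outside promoters (y axis) on the downstream (blue) and upstream (brown) side of their island, in genes on the plus and minus strand (x axis). Downstream shores make up 701 of the regions in plus-strand genes and 627 of those in minus-strand genes, against 36 in plus-strand and 42 in minus-strand genes on the upstream side.

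The 1886 regions fell in 1497 shore entries of 1466 islands. A single member was found in 1121 entries, 2 in 285, 3 in 76 and 4 in 15, the most in any entry. Regions of 1 shore share their neighbourhood and are not independent of each other. Members of both signs occurred in 2 entries. In RPS29, a ribosomal protein gene, the 4 regions of a single shore had the scores -8.72, -14.1, -8.41 and -14.5 in the authors' deposited table. In GSK3B, a kinase gene of Wnt and insulin signalling, they were -17.4, -10.3, -11.0 and -7.17 in the authors' deposited table. All 4 scores were negative in each of these shores, and small and larger sizes stood side by side.

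Members on both sides of an island were found at 31 islands. At 16 of these the same gene was named on both sides, and at 3 the sides belonged to divergent genes. HNRNPA2B1, an RNA-binding protein gene, and CBX3, which encodes a heterochromatin protein, share such an island. HNRNPA2B1 had the scores -12.2, -12.0 and -13.5 on its side and CBX3 had -16.0 and -8.72 on its own, in the authors' deposited table. NIPBL, the cohesin loader gene, with NIPBL-AS1, and SETD5 with THUMPD3-AS1 were the other divergent pairs, all their regions here being negative.

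Gene bodies of 1316 genes held at least 1 of the regions, out of 4045 genes with any H3K79me3 region (32.5%). Of these, 940 held 1 region, 265 held 2, 84 held 3 and 27 held 4 or more. RefSeq matched 1306 of the symbols, 56 of them by an older symbol, and 1258 genes were protein coding and 28 were long noncoding RNAs. For 459 genes (34.9%) shore regions outside promoters were the only H3K79me3 regions. A promoter region of the same mark was also present in 156 of the 1316 genes (11.9%, 10.2 to 13.7), against 179 of the 1898 other genes with a body region outside promoters (9.43%, 8.20 to 10.8). These intervals overlap.

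The largest negative scores lay in genes of varied function. CLK1, a kinase that phosphorylates SR splicing factors, scored -29.9 in the authors' deposited table and lay within an intron on chromosome 2, 201727635 to 201727698. HOXA9, the homeobox gene central to MLL leukemia, had regions of -27.6 and -12.5 in the authors' deposited table. Both lay in an exon and the 3' UTR, the larger at chromosome 7, 27202101 to 27202626, between 2 islands, and were the only H3K79me3 regions of the gene. SAP18, a subunit of a histone deacetylase complex, had -27.0, -12.0 and -10.1 in the authors' deposited table, all in 1 shore. In HOXA9 and SAP18 the largest value stood beside much smaller ones.

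RPS9, a protein of the small ribosomal subunit, had 4 regions in 1 shore, with the scores -16.0, -25.8, -25.6 and -15.5 in the authors' deposited table. PA2G4, a regulator of growth, and PSMB1, a subunit of the proteasome core, had 1 region each, both at -25.6 in the authors' deposited table. C19orf43 had -24.2, -14.3 and -14.2 in the authors' deposited table. For SLC36A4, an amino acid transporter gene, the scores were -24.2 and -11.3 in the authors' deposited table. ANXA2R, the annexin A2 receptor gene, had 1 region and ARID1A, a subunit of the BAF remodelling complex, had 3, and both reached -23.1 in the authors' deposited table. At that score 8 genes tied, and BACH1, DDX46, EIF4EBP1, ELANE, LOC648987 and SNRPG shared it. They stand for 7 regions, since ANXA2R and LOC648987 are named for the same one.

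**Figure D4:**
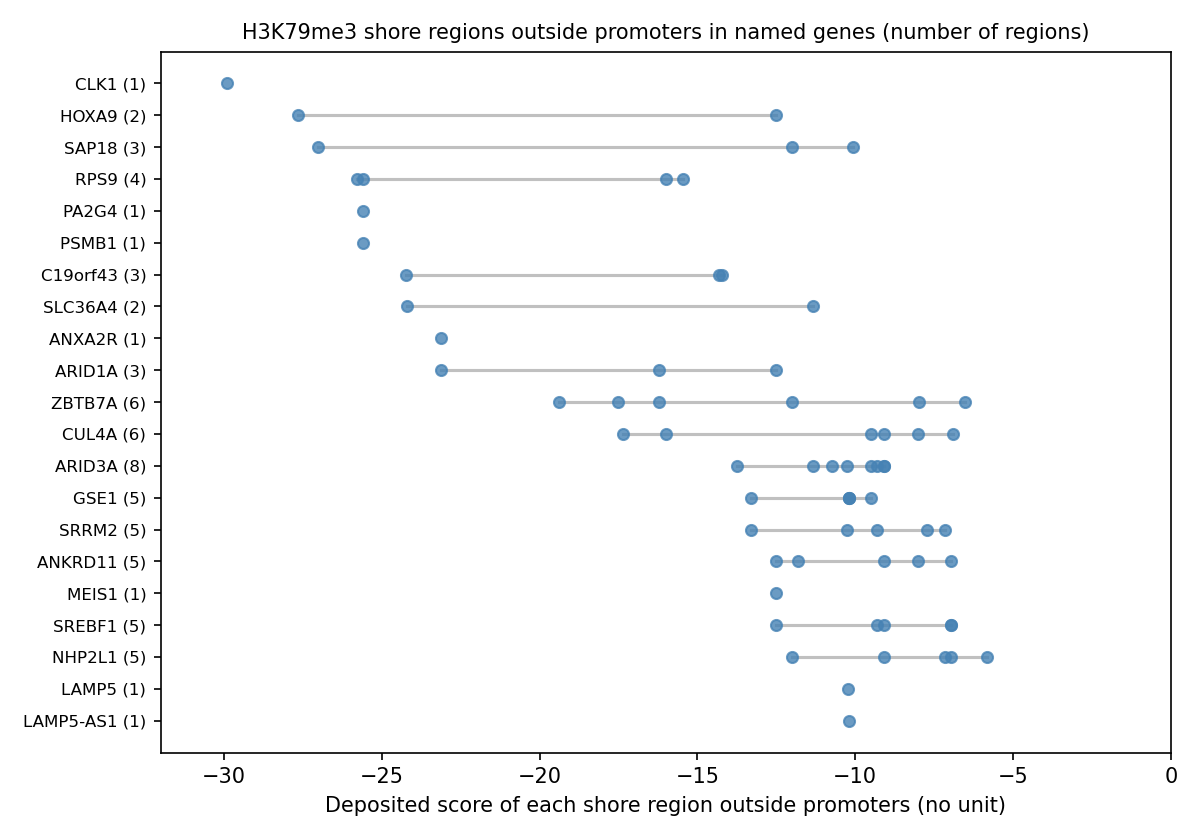
Deposited score (x axis, no unit) of every H3K79me3 shore region outside promoters in the genes named for their largest negative score, their number of regions or their place in the study, with the number of regions after each name; each point is 1 region and the grey line spans a gene. All points are negative, from -29.9 in CLK1 to -5.84 in NHP2L1. Among the genes with the most regions, scores reach -19.4 in ZBTB7A and -17.4 in CUL4A.

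The 8 genes with the most regions and the 10 with the largest negative scores shared no gene. Such short lists out of 1316 genes would seldom share any, so nothing is read from this. How often they would was not tested. ARID3A, a transcription factor gene, held 8 of its 14 H3K79me3 regions in shores outside promoters, spread over several islands within the gene, with scores from -13.7 to -9.08 in the authors' deposited table. CUL4A, the scaffold of a ubiquitin ligase, held 6 with the scores -17.4, -16.0, -9.51, -9.08, -8.00 and -6.91 in the authors' deposited table. ZBTB7A, a transcriptional repressor gene, held 6 from -19.4 to -6.52 in the authors' deposited table. Among genes with 5 regions each, SREBF1 is a regulator of lipid synthesis, SRRM2 and NHP2L1 are splicing factors, and ANKRD11 and GSE1 are linked to chromatin regulation. Their scores ran from -13.3 to -5.84 in the authors' deposited table, all negative.

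Of the 11 positive regions, 3 each lay on chromosomes 7 and 19, 2 each on 1 and 10, and 1 on 20. Of all members, 94 were on chromosome 7, 182 on 19, 180 on 1, 79 on 10 and 40 on 20. So few positive regions show no pattern over chromosomes. ATAD3B, a mitochondrial ATPase gene, had the largest, 14.8 in the authors' deposited table, and it was the only H3K79me3 region of the gene. ZNF100, with LOC641367 on the same bases, had 13.5 in the authors' deposited table, as did a region on chromosome 10 in no gene. EEF1A2, a translation elongation factor gene of nerve and muscle, had 10.9 in the authors' deposited table, with the nearest other H3K79me3 region 214293 bases away. TNRC18 had 9.66 for its positive region in the authors' deposited table, beside other shore scores of -7.17, -7.17 and -17.4. The remaining positive scores were 9.08 downstream of SKIDA1, 8.44 in SEPT7P2, 8.41 in CSNK1G2 and its antisense gene, 6.98 in EIF3B and 6.17 in both PIP5K1C and PRCC, in the authors' deposited table. Of these, EIF3B also held 5 negative H3K79me3 regions elsewhere, so a positive region need not stand for its gene. A ChIP region carries no strand of transcription, so CSNK1G2 and its antisense gene cannot be told apart.

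At the targeted locus, shore regions outside promoters were a small part of the H3K79me3 regions, as in the whole H3K79me3 table (13.8%). LAMP5, a lysosome-associated membrane protein gene, held 1 of its 9 H3K79me3 regions in such a shore, at -10.2 in the authors' deposited table. LAMP5-AS1 also held 1, of 8, at -10.2 in the authors' deposited table. Both are close to the median size of all members. No RNA level was measured, so the knockdown is not checked by these values.

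Gene lists are given by the share of their genes that held a member among those with an H3K79me3 body region outside promoters, which over all 3214 such genes was 40.9%. MLL fusion targets had 21 of 31 genes with a member (67.7%, 95% Wilson interval 50.1 to 81.4). Their 26 regions were all negative, with a median size of 12.5, against 10.4 over all members. After HOXA9 the largest scores were -21.4 in SOCS2, a suppressor of cytokine signalling, -20.2 in RUNX2, a runt-domain factor, and -18.8 in ZEB2, a zinc finger repressor, in the authors' deposited table. Another homeobox gene, MEIS1, had 55 H3K79me3 regions but only 1 in a shore outside promoters, at -12.5 in the authors' deposited table. Likewise DACH1, a transcriptional cofactor gene, had 3 of 147 and ZNF521 had 1 of 108, so the many regions of these genes lay elsewhere.

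Hematopoietic transcription factors had 14 of 24 genes with a member (58.3%, 38.8 to 75.5), an interval that takes in the background. All 18 of their regions were negative, with a median size of 13.4. LYL1, a basic helix-loop-helix factor, had -16.0, -20.1 and -9.09 in the authors' deposited table, and these were its only H3K79me3 regions. GFI1, a transcriptional repressor, had -15.5, IKZF1 -14.5 and SPI1, the myeloid master regulator PU.1, -13.5 in the authors' deposited table. RUNX2, ZEB2, GFI1, MEIS1 and others are also on the MLL fusion target list, so these lists are not independent.

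DOT1L and elongation factors had 9 of 14 genes with a member (64.3%, 38.8 to 83.7), an interval that takes in the background, with 12 regions, all negative, and a median size of 10.8. DOT1L itself held 2, with the scores -10.2 and -9.51 in the authors' deposited table. CDC73, a subunit of the PAF complex, had -20.1, SUPT16H, a subunit of the histone chaperone FACT, had -16.0, and MLLT10, a DOT1L cofactor, had -12.5 in the authors' deposited table. AFF1, a scaffold of the super elongation complex, had -15.0, -16.0 and -8.00 in the authors' deposited table.

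Chromatin modifiers and remodellers had 18 of 40 genes with a member (45.0%, 30.7 to 60.2), near the background. Their 25 regions were all negative, with a median size of 9.51. ARID1A had -12.5, -16.2 and -23.1 in a single shore in the authors' deposited table. The largest scores of KDM3B, a demethylase of histone H3 lysine 9, KDM5B, which acts on lysine 4, and CHD4, the ATPase of the NuRD complex, were -18.8 for KDM3B, -15.3 for KDM5B and -13.7 for CHD4 in the authors' deposited table.

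RNA splicing genes had 22 of 36 with a member (61.1%, 44.9 to 75.2), with 33 regions, all negative, and a median size of 12.2. After CLK1, HNRNPM had -21.4 and -12.7, U2AF1, which recognises the 3' splice site, had -17.4, and the kinase PRPF4B had -16.3 and -9.32 in the authors' deposited table. SF3B1 and SRSF2 each had -13.7 in the authors' deposited table. Over all heterogeneous nuclear ribonucleoprotein genes, a family chosen after values had been seen, 11 of 18 had a member (61.1%, 38.6 to 79.7). That interval takes in the background, and their 22 regions were all negative. Several of these genes, HNRNPM among them, are also on the splicing list, so the family is not independent of it.

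Housekeeping and translation genes had the highest share among the 7 lists, with 18 of 21 genes (85.7%, 65.4 to 95.02), and their 28 regions were all negative with a median size of 11.2. YWHAZ, a 14-3-3 protein gene, had -20.8 in the authors' deposited table. The HSP90 chaperone gene HSP90AB1 had -8.68, -11.2 and -18.8, and HSP90AA1 had -17.5 and -16.0, in the authors' deposited table. For PABPC1, the poly(A) binding protein gene, the scores were -12.7, -9.92 and -18.8 in the authors' deposited table. Both HSP90 genes held all their H3K79me3 regions in such shores, while YWHAZ held 1 of 8 and PABPC1 held 3 of 9.

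Ribosomal protein genes, also chosen after values had been seen, showed a like share, with 28 of 35 genes (80.0%, 64.1 to 90.0), and 49 regions, all negative, with a median size of 11.3. After RPS9, RPS10 had -21.5, RPS7 a largest score of -21.5 and RPS24 -20.1 in the authors' deposited table. Translation initiation factor genes had 15 of 22 with a member (68.2%, 47.3 to 83.6), 20 of their 21 regions being negative and the positive one that of EIF3B. Zinc finger genes of the ZNF series, another family picked afterwards, were below the background point estimate at 31 of 89 (34.8%, 25.7 to 45.2), an interval that takes it in. Ribosomal protein genes have many processed pseudogenes, and how reads with several matches were treated is not given in the sources used here. Gene length, the number of H3K79me3 regions and the number of islands in a gene were not matched in any of these shares.

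Cell cycle and apoptosis genes had 13 of 18 with a member (72.2%, 49.1 to 87.5), with 16 regions, all negative, and a median size of 9.51. CDKN1B, the cyclin-dependent kinase inhibitor p27, had -18.5, the cyclin gene CCNL1 had -14.3, MDM2, the ligase that acts on p53, had -14.2, and CCND3 had -12.5 in the authors' deposited table. CDK1 had a largest score of -10.2 and CDKN2C, an inhibitor gene, scored -12.2 in the authors' deposited table. With 99.4% of all members negative, the shared sign says nothing on this list or on any other.

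The overlap with H3K79me2 regions depended on the rule used. At least 1 base was shared with an H3K79me2 region by 25 members (1.33%, 0.899 to 1.95), against 134 of the other 11780 H3K79me3 regions (1.14%, 0.961 to 1.35). The share of members was 0.212% with a reciprocal overlap of 50% and 11.1% within 1 kb. With neighbours of 1 sign within 5 kb merged, 14.6% of the merged runs that held a member shared a base. Such runs take in regions outside shores and the bases between regions. The signs of the pairs were the same for 14 and opposite for 11. Since nearly all members were negative, a pair mostly has the same sign where its H3K79me2 region is negative. The same-sign share was 56.0% (37.1 to 73.3). This wide interval takes in the negative share of H3K79me2 over its table, 55.3%, and over its shore regions outside promoters, 47.7%. The pairs named next were chosen after their values were seen. MED26, a Mediator subunit gene, had -20.1 for H3K79me3 and 9.77 for H3K79me2 over 90 shared bases, in the authors' deposited tables. DDX42, an RNA helicase gene, had -18.8 for H3K79me3 and 14.4 for H3K79me2 over 43 shared bases, in the authors' deposited tables. Another H3K79me2 region, in the same shore as this DDX42 region, had -8.19 in the authors' deposited table. GGNBP2 had -18.8 for H3K79me3 and -12.9 for H3K79me2 over 14 shared bases, in the authors' deposited tables. CCNA2, cyclin A2, had -8.00 for H3K79me3 and 17.1 for H3K79me2 over only 7 shared bases, in the authors' deposited tables.

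Regions of both marks outside promoters were present in 141 shore entries, 9.42% of the 1497 with an H3K79me3 region and 19.3% of the 731 with an H3K79me2 region. In 67 both marks were negative, in 70 H3K79me3 was negative and H3K79me2 positive, in 3 H3K79me2 had both signs, and in 1, in ATAD3B, both were positive. Of the 144 H3K79me2 regions there, 73 were negative (50.7%, 42.6 to 58.7), near the 47.7% of all H3K79me2 shore regions outside promoters. SWAP70 had -16.2 as its largest score for H3K79me3 and -19.4 for H3K79me2, and MED17, another Mediator subunit gene, had -13.3 for H3K79me3 and -25.5 for H3K79me2, in the authors' deposited tables. CSNK1A1, a casein kinase gene, had -18.8 for H3K79me3 and 12.7 for H3K79me2, in the authors' deposited tables. At the level of genes, 789 of the 1316 had an H3K79me2 region anywhere (60.0%, 57.3 to 62.6), against 1096 of the 1898 other genes with an H3K79me3 body region (57.7%, 55.5 to 59.9), and these intervals overlap.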

How the data were processed

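H3K79me3 and H3K79me2 ChIP-seq of MOLM-13 cells with shLAMP5-AS1 or shNC was analysed from the authors' tables of differential regions, with 1 sample a group. Per the submitters' processing notes, DESeq2, bedtools, MACS2 2.1.1 and Bowtie2 were among the tools, and hg19, hg38 and GRCh38 among the builds, with no role or order given. Each region has a signed score deposited by the authors, with no unit, beside the authors' annotation. Depth is unknown. The sign of the score went against the name of its region in 0 cases.

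Of 1619 intron members of a single matched gene, 1618 lay on its chromosome but only 225 (13.9%) inside its GRCh38.p14 bounds. The coordinates are thus not GRCh38, and hg19 is also among the builds noted. Positions are as deposited, and whether they count from 0 or 1 is not stated. Region sequences were not used here.

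A region counts for each gene in its exon, intron or UTR columns. Shares have 95% Wilson intervals and medians 95% binomial order-statistic intervals. Sets with under 80% matched were not used. Values were computed with pandas 2.3.3, numpy 2.4.6, scipy 1.17.1 and Python 3.11.15 and drawn with matplotlib 3.10.9, and the computations were tested on simulated data. Members, lists and rules were chosen with earlier results of these data known. Named genes were the 10 with the largest negative and up to 10 with the largest positive scores, the 8 with the most members, up to 4 per list, and LAMP5, LAMP5-AS1, HOXA9 and MEIS1, with ties taken alphabetically. Other genes, the gene families and the side of the shore were chosen after values were seen. The alternatives kept a score size of 10 or more, kept autosomes, joined neighbours of 1 sign up to 5 kb apart, or used each shore once, other definitions of promoter and shore, annotated regions only, all genes but the one with the most members, or other overlaps.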

Additional observations from a re-analysis of the deposited data

How the results depend on the processing

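Leaving out the upstream 2 kb could change nothing, since every such region also had a promoter entry, and is not counted. Over the other 71 alternatives of 11 results, 58 stayed within the 95% interval or within 1.5 times the count and 13 moved. The negative share of the members, the negative share of H3K79me2 shore regions, the CpG ratio and the downstream side moved under none of those run. The H3K79me2 share nonetheless went from 47.7% to 50.1% with a score size of at least 10, so which sign was in the majority was not stable. The downstream side is largely fixed by the rule, so its stability carries little weight. With a score size of at least 10, members were 14.8% of H3K79me3 regions, with a median size of 12.6 by construction, 846 genes, 0.729% on H3K79me2 bases, and 8.63% of genes with a promoter region. With neighbours within 5 kb merged, which joins regions in and out of shores and keeps the largest score, the share was 22.5%, the median 12.7 and the overlap 14.6%. With each shore counted once, the share was 10.8% and the median 11.0. Among regions annotated to a gene, 94.0% were in introns. The overlap was 0.212% under the reciprocal 50% rule and 11.1% within 1 kb. Beyond these constructions the cause was not tested. No paired analysis was possible because each group has 1 sample. With unknown depth and coarse scores, single regions and ranks are imprecise, and regions of a shore or gene are not independent.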

Other observations

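Shore regions outside promoters also occurred away from annotated gene bodies. The largest was -25.7 in the authors' deposited table, in a region downstream of SPIDR and of CEBPD, a myeloid transcription factor gene. Next came -22.8 in the authors' deposited table, on chromosome 19, 15441098 to 15441167, where an H3K79me2 region of the same shore scored 9.92. Scores of -20.2 on chromosome 12 and -18.8 on chromosome 22 followed in the authors' deposited table. Downstream of JUND, a subunit gene of the AP-1 transcription factor, lay a region at -18.5 in the authors' deposited table.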
